A study of Mus musculus with 24 samples.

Results

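The ventral suprachiasmatic nucleus (SCN) of C57BL/6 mice killed after a light pulse was compared with the same tissue of sham-treated mice. The comparison rests on 8 of the 24 arrays of the series, chosen by their titles: 4 of light-pulsed and 4 of sham-treated ventral SCN. The light group received a light pulse of 30 min of a kind that advances the clock, and tissue was taken 3.5 h later. The sham group went through a sham treatment, whose details are not given in the sources used here. Mice of both groups were 8 weeks old when obtained and had lived in constant dim red light for at least 7 days. The ventral SCN, which the labels also call the core, was cut from haematoxylin-stained coronal sections by laser. Its RNA was amplified and labelled. The titles name 2 batches, and each group has arrays 1 and 2 in batch A and arrays 3 and 4 in batch B. The remaining 16 arrays hold central and dorsal SCN of light and sham mice, 4 of each, and entered the fit of the spread and the comparison between regions.

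The SCN, in the hypothalamus, is the main circadian pacemaker of mammals. Light reaches its ventral neurons through axons of retinal ganglion cells, which release glutamate and the peptide PACAP. Calcium entry and kinases then act on the transcription factor CREB, which binds the cAMP response element (CRE) in promoters of early genes and of the clock genes Per1 and Per2. Early transcription factors such as the Fos and Egr proteins go on to act on later genes, and feedback inhibitors shut the kinase cascade down.

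Values are the authors' log2 expression values of Affymetrix probe sets, with 1 probe set standing for each gene. The batches are not on 1 scale, so a level in batch A is read only against batch A. A difference is light minus sham on the log2 scale with its standard error (±), from a fit with batch as a term. Genes entered the test with a log2 value above 4 on 4 or more of the 24 arrays, and a gene passed if its Benjamini-Hochberg adjusted p in limma was under 0.05. Where a pair of numbers in parentheses has no name beside the first, that first number is the log2 difference.

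The ventral label was checked against the neuropeptide genes of the region. In sham mice, Vip, made by neurons of the SCN core, averaged 12.43 in ventral and 8.46 in dorsal SCN (difference 3.97 ± 0.422, adjusted p = 6.61e-06). Grp, another core peptide, averaged 10.14 in ventral and 7.997 in dorsal SCN of sham mice (difference 2.14 ± 0.200, adjusted p = 1.35e-06). Calb2 was also higher in ventral than in dorsal sham SCN (1.29, adjusted p = 0.00839), and Avp, the vasopressin gene of the shell, was lower (-1.42, adjusted p = 0.0386). The other core list genes set against the dorsal SCN ran the other way. Penk had 6.75 in ventral and 9.06 in dorsal sham SCN (-2.32, adjusted p = 1.22e-06). Calb1 had -0.47 (adjusted p = 0.126) and Nts had -0.65 (adjusted p = 0.807). Of the other shell list genes set against the dorsal SCN none passed, with Prok2 at -0.96, Avpr1a at -0.32, C1ql3 at -0.20 and Prokr2 at 0.41. The ventral arrays had a median correlation with the other arrays of their batch of 0.974 to 0.983. The 3′ minus 5′ signal of Gapdh, which grows when cDNA is short, was 2.86 and 2.36 on light and 2.89 and 2.02 on sham arrays of batch A. In batch B it was 0.890 and 0.887 on light and 0.986 and 0.957 on sham arrays. Dorsal light array 4 stood apart, at 5.41 for Gapdh and 0.872 for the median correlation.

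Of 13494 genes tested, 97 passed in the ventral SCN (0.719% of those tested). Light raised 79 of them (0.585%) and lowered 18 (0.133%), and 56 rose by over 2-fold while 7 fell by over 2-fold. All 97 had the same direction in both batches. In 78 of the 79 risen genes both light arrays lay above both sham arrays within each batch, and in all 18 fallen genes they lay below. The same separation was found upward in 5.96% and downward in 7.91% of all genes tested. The 97 genes were chosen by p on these same arrays, so their shared direction and separation follow largely from that choice. The exception among the risen genes was the adaptor gene Tirap, whose arrays overlapped in batch A. In such dissected tissue, fewer cells of a type and less RNA per cell cannot be told apart.

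The count depended on the arrays that set the spread. It was 207 without dorsal light array 4 and 196 when the 8 ventral arrays were fitted alone, which shared 83 genes with the 97. Leaving out 1 ventral array gave between 47 genes (without light array 2) and 81 (without light array 1). Of the 97 genes, 39 passed in all 8 of these fits and 58 did not pass in at least 1, 50 of them without light array 2. Where a gene whose difference is given below passed but did not pass in all 8, the highest adjusted p of the 8 follows with the number of fits passed. The replicate block (the array number as a term in place of batch) gave 124 genes. Calls within the gene lists that this block or dorsal light array 4 changed are given beside each list. A sham mean of under 4 in batch A was found for 24 of the 79 risen genes, whose folds are imprecise, and no fold is given for the 4 with such a mean in both batches.

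**Figure D1:**
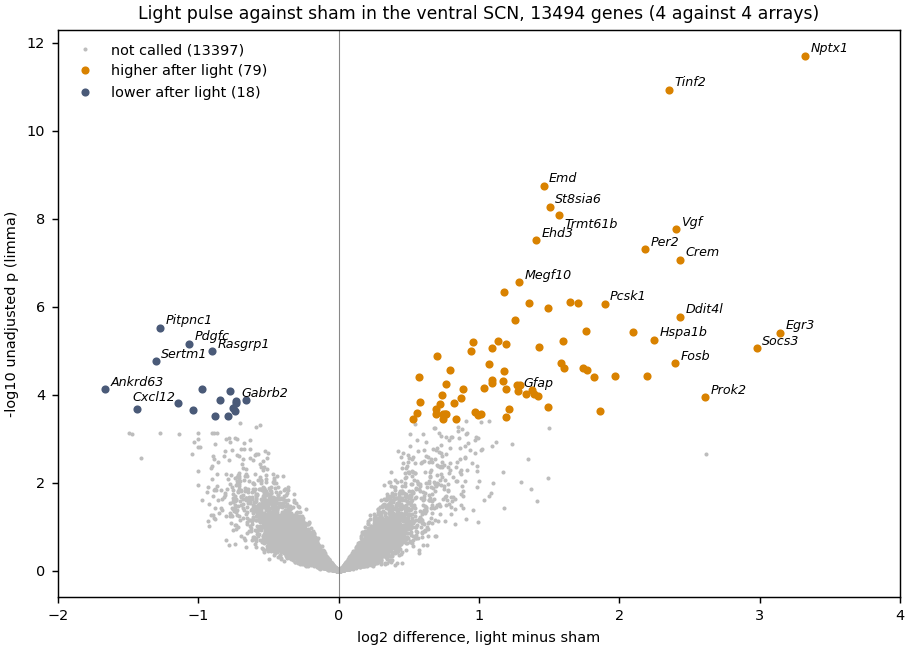
Log2 difference, light minus sham (horizontal axis), against the −log10 of the unadjusted limma p (vertical axis) for 13494 genes of the ventral SCN, 4 light against 4 sham arrays. The 79 risen genes (orange) reach further from 0 than the 18 fallen ones (blue), and Nptx1 and Tinf2 lie highest.

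Several genes that neuronal activity is known to induce were among those of smallest p. Nptx1 encodes neuronal pentraxin 1, a secreted protein that gathers AMPA receptors at synapses. Its log2 level was 7.93, 8.66, 9.96 and 9.48 on light arrays 1 to 4, against 4.85, 4.93, 6.28 and 6.67 on sham arrays 1 to 4. Every light array lay far above both sham arrays of its batch. Nptx1 rose 10.03-fold (3.33 ± 0.235, adjusted p = 2.73e-08), and its second probe set gave a difference of 2.04.

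Vgf encodes the precursor of several secreted peptides and is a known target of CREB in neurons. It had 10.68, 11.07, 11.48 and 11.66 on light arrays, against 8.12, 7.82, 10.16 and 9.18 on sham arrays. The groups were apart in both batches, and the sham arrays of batch B differed most among themselves. Vgf rose 5.29-fold (2.40 ± 0.278, adjusted p = 3.91e-05). Pcsk1, the prohormone convertase that cuts precursors such as VGF, had 5.36, 6.44, 8.69 and 8.57 on light arrays, against 4.01, 3.47, 7.25 and 6.76 on sham arrays. Light arrays were above sham arrays in both batches by similar gaps. Pcsk1 rose 3.72-fold (1.90 ± 0.279, adjusted p = 0.000775).

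Crem encodes a transcription factor that binds the CRE, with an early-induced repressor form known as ICER. Its level was 5.56, 6.42, 8.85 and 8.92 on light arrays, against 2.89, 4.10, 6.73 and 6.31 on sham arrays. Both sham arrays of batch A lay near or below the filter level, and light arrays were above sham arrays in each batch. Crem rose 5.39-fold (2.43 ± 0.309, adjusted p = 0.000127). Its other probe sets gave differences of 1.53, 0.36 and 0.24 at mean levels of 4.92, 3.54 and 3.97, against 6.22 for the probe set used.

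Per2, a repressor in the feedback loop of the clock, had 6.44, 6.44, 9.49 and 9.87 on light arrays, against 4.55, 4.57, 7.22 and 7.15 on sham arrays. The arrays of each group lay close together within a batch, and the groups were far apart. Per2 rose 4.55-fold (2.19 ± 0.269, adjusted p = 8.31e-05). Its other probe set past the filter gave 0.21 at a mean level of 4.08, against 6.97 for the probe set used. Of the 23 core clock genes tested, Per2 was the only gene that passed, and the median over the list was 0.01, against -0.03 over all genes. Its partner Per1 had a difference of 0.87 (adjusted p = 0.639), and Per3 had -0.25 (adjusted p = 1.00). The repressor gene Cry1 had 0.60 (adjusted p = 0.0868), Arntl, which encodes the activator BMAL1, had 0.77 (adjusted p = 0.0977), and the output gene Dbp had -0.29 (adjusted p = 0.999). With the replicate block Cry1 (adjusted p = 0.0237) and Arntl (adjusted p = 0.0287) also passed. Without dorsal light array 4, Cry1 (adjusted p = 0.0421) and Rora, a nuclear receptor that activates Arntl (0.94, adjusted p = 0.00133), also passed.

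Among 21 immediate early transcription factor genes, 3 rose and 0 fell, with a list median of 0.51. Egr3, a zinc-finger factor, had 5.08, 4.36, 7.95 and 7.81 on light arrays, against 2.73, 2.89, 3.42 and 3.58 on sham arrays. All sham values lay below the filter level of 4, so no fold is given for its difference of 3.15 ± 0.514 (adjusted p = 0.0024), and a second, dimmer probe set of Egr3 (mean level 3.89) gave -0.15. Fosb, an AP-1 component, had 3.999, 4.71, 7.88 and 7.45 on light arrays, against 3.19, 3.45, 3.83 and 3.98 on sham arrays. Its sham values were also below 4, the light arrays of batch B stood highest, and the difference was 2.40 ± 0.441 (adjusted p = 0.00699). Egr2 had 1.38 (adjusted p = 0.0174), and an adjusted p up to 0.0931 with 1 array left out, passing in 4 of 8 fits. Members that did not pass included Nr4a2 (1.50, adjusted p = 0.0702), an orphan nuclear receptor, Egr1 (0.98, adjusted p = 0.105) and Fos (0.64, adjusted p = 1.00). Fosl2, another AP-1 component, differed by 4.17 in batch A and by 1.06 in batch B, with an adjusted p of 0.164 in the fit of both. Without dorsal light array 4, Egr1 (adjusted p = 0.02) and Nr4a2 (adjusted p = 0.0455) also passed, which makes 5 risen genes of 21. In the ventral arrays fitted alone Egr2 did not pass (adjusted p = 0.0577), while Egr1 (adjusted p = 0.0154) and Klf10 (0.99, adjusted p = 0.0206) did. That fit had 4 risen genes of 21.

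Among 25 later activity-induced effectors, 5 rose and 0 fell, and 20 had a positive difference, against 43.2% of all genes. Besides Nptx1, Vgf, Crem and Pcsk1, the small GTPase gene Rheb, an activator of mTORC1, rose by 0.57 (adjusted p = 0.0111, and up to 0.0695 with 1 array left out, passing in 6 of 8 fits). Members that did not pass included Gpr3 (1.24, adjusted p = 0.123), a constitutively active receptor coupled to cAMP, and Plk2 (0.70, adjusted p = 0.651), a kinase of synaptic scaling. Arc, an effector of synaptic plasticity, had 0.19 (adjusted p = 1.00), and the neurotrophin gene Bdnf had 0.83 (adjusted p = 0.88). Gpr3 passed with the replicate block (adjusted p = 0.0258) and without dorsal light array 4 (adjusted p = 0.0388).

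**Figure D2:**
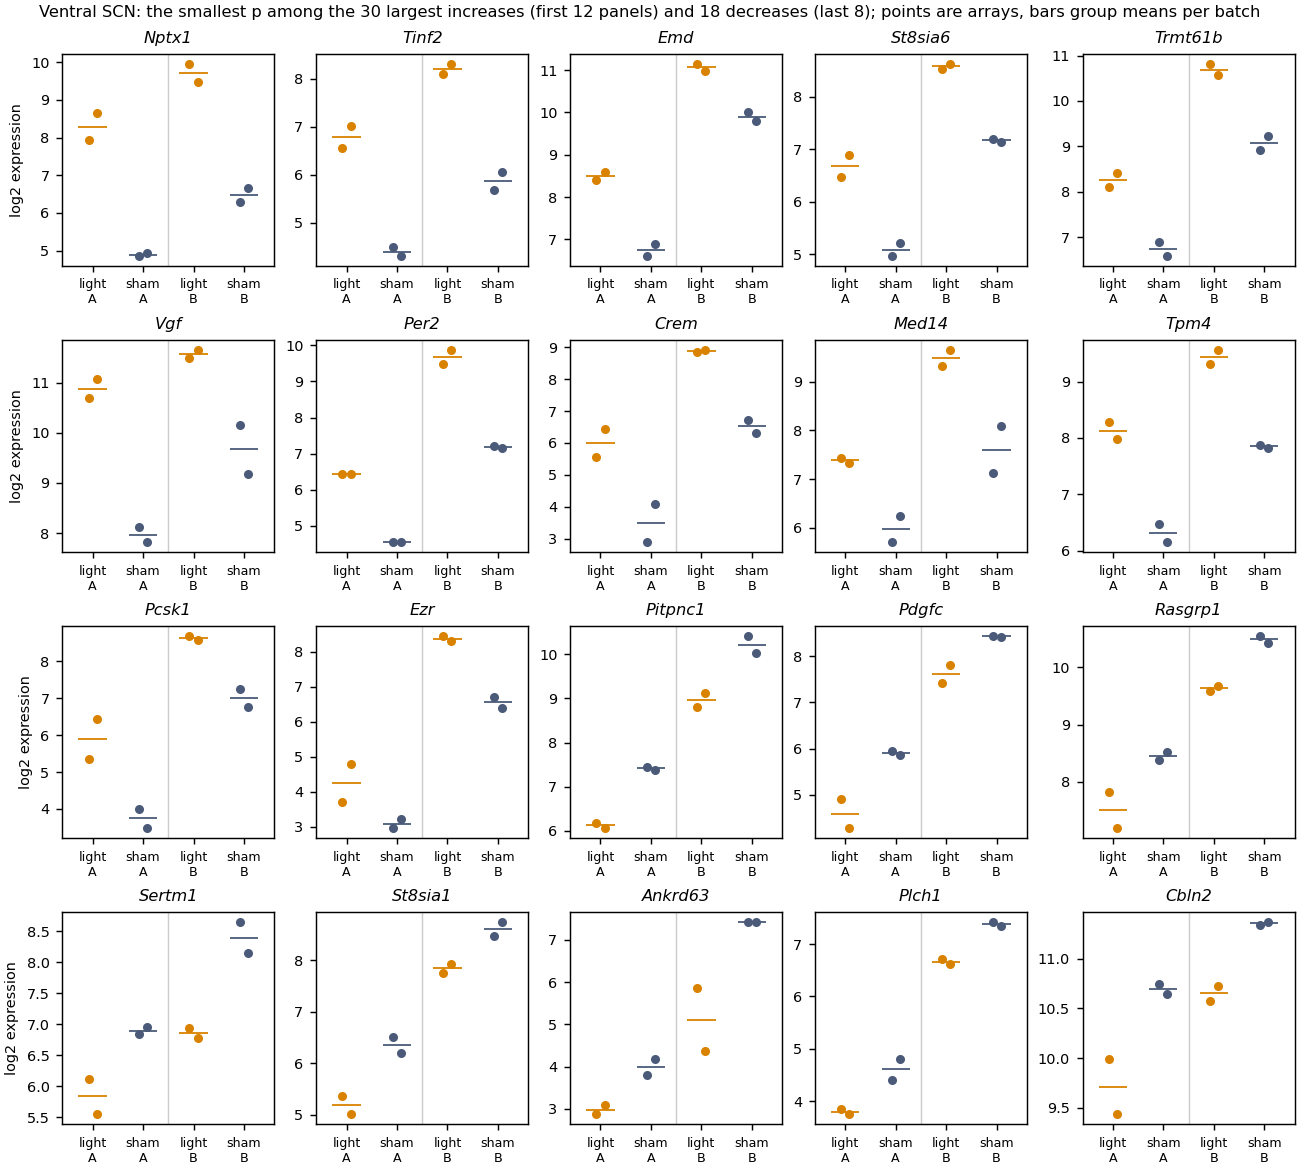
Log2 expression on each ventral array (vertical axis) for the 12 genes of smallest p among the 30 largest increases and the 8 of smallest p among the 18 decreases, with light left of sham in batch A and again in batch B. Points are arrays and bars are means of 2 arrays, and in each of the 20 genes the light and sham arrays of a batch do not overlap.

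The telomere gene Tinf2 had the second smallest p. It encodes TIN2, which holds the shelterin complex together at chromosome ends. Its level was 6.56, 7.01, 8.09 and 8.31 on light arrays, against 4.50, 4.31, 5.69 and 6.06 on sham arrays. Each light array was about as far above the sham arrays in batch A as in batch B, with differences of 2.38 and 2.33. Tinf2 rose 5.11-fold (2.35 ± 0.182, adjusted p = 7.95e-08), and a dimmer probe set of the gene gave 0.74. All 7 shelterin genes were tested, and Tinf2 was the only member that passed. Acd, whose protein TPP1 binds TIN2, had 0.86 (adjusted p = 0.141), and the DNA-binding subunits had 0.06 for Terf1, 0.22 for Terf2 and -0.35 for Pot1b. In the ventral arrays fitted alone Acd passed too (adjusted p = 0.0203).

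Promoter sequence was read for the risen genes because CREB and the early factors act on short motifs near gene starts. RefSeq windows of 300 bases, 250 before and 50 after the start (GRCm38.p6), were found for 62 of the 79 risen and 15 of the 18 fallen genes. Per2, Nptx1 and Egr3 were among the risen genes without a window, so no motif was looked for in them. The full CRE, TGACGTCA, was found for 5 of the 62 risen genes (8.06%), Tinf2, Pcsk1, Dio2, Lmbrd1 and Umps. It was found for 0 of the 15 fallen genes, for 3.45% of the 10880 tested genes with a window and in 1.79% of all 32851 windows. The core site TGACG, searched on both strands and contained in the full site, was found for 30 of the 62 (48.4%) and for 34.1% of the tested genes, in 20.8% of all windows. The 150 bases before the start are shown for 3 risen genes with a full CRE, for Fosb with a core site and for Prok2 with an E-box, the site of CLOCK and BMAL1. Capitals mark a CRE or its core site, an E-box (CACGTG) or an AP-1 site (TGANTCA, with N for any base). Each line runs 5′ to 3′ on the strand of the gene.
Tinf2 (chr14:55681818-55681967, minus strand): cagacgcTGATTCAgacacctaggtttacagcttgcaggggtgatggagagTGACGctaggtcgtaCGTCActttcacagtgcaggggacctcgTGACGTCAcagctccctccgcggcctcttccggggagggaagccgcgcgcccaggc
Pcsk1 (chr13:75089707-75089856, plus strand): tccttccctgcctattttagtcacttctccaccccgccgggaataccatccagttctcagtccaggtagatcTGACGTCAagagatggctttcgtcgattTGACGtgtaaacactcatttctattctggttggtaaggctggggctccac
Dio2 (chr12:90739039-90739188, minus strand): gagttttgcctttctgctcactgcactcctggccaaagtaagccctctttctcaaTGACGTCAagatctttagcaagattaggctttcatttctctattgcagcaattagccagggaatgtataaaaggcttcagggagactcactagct
Fosb (chr7:19310046-19310195, minus strand): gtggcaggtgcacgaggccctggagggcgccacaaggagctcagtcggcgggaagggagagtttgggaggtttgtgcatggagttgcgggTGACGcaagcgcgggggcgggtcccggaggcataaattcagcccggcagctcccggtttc
Prok2 (chr6:99726393-99726542, minus strand): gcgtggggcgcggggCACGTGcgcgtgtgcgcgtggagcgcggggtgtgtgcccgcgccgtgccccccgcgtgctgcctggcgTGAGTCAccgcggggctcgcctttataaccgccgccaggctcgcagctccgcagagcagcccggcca
The full CRE began 56 bases before the start in Tinf2, 78 bases in Pcsk1 and 95 bases in Dio2. Tinf2 also held core sites at 99 and 84 bases before its start. Its match to the AP-1 pattern, at 143 bases before the start, has T as the free base. The E-box of Prok2 began 135 bases and its AP-1 site 67 bases before the start.

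Other motifs were found at shares given here beside those of the tested genes. The AP-1 pattern, with any base in the middle, was found for 8 of 62 risen genes (12.9%), against 6.43% of tested genes. The E-box was in 7 of 62 (11.3%), against 11.3% of tested genes. A STAT site, TTCNNNGAA, was in 5 of 62 (8.06%), Socs3 and Gfap among them, against 8.23% of tested genes. A heat shock element, GAANNTTC, was in 8 of 62 (12.9%), Hspa1b among them, against 7.03% of tested genes. The EGR site, GCGNGGGCG, was in 6 of 62 (9.68%), against 12.2% of tested genes. Each match describes letters in a window and no binding was measured.

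Among 16 granin and prohormone processing genes 3 rose, Vgf, Pcsk1 and Chga, with a list median of -0.02. Chga, chromogranin A of dense-core vesicles, had 0.76 (adjusted p = 0.0418), and an adjusted p up to 0.244 with 1 array left out, passing in 0 of 8 fits. Ptprn, a membrane protein of dense-core vesicles, also passed without dorsal light array 4 (0.62, adjusted p = 0.0109). Prok2, prokineticin 2, an output signal of the SCN, had 5.996, 6.92, 9.27 and 9.89 on light arrays, against 3.03, 3.41, 8.39 and 6.80 on sham arrays. Sham array 3 was high, near the light arrays of its batch. Prok2 rose by 2.61 ± 0.557 (adjusted p = 0.0235, and up to 0.14 with 1 array left out, passing in 2 of 8 fits). Its other probe sets past the filter gave 0.18 and 0.32 at mean levels of 3.90 and 3.35, against 6.71 for the probe set used. Penk, the enkephalin precursor, rose by 1.04 (adjusted p = 0.0173, and up to 0.0907 with 1 array left out, passing in 3 of 8 fits). C1ql3, a secreted synaptic organizer, rose by 1.18 (adjusted p = 0.0135, and up to 0.0895 with 1 array left out, passing in 6 of 8 fits).

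The peptide genes Vip, Grp and Avp did not pass. Vip had 0.00, Grp had -0.35 and Avp had 0.45, with adjusted p of 1.00, 0.888 and 1.00. Among 9 genes of the SCN core list 1 rose, Penk, whose sham level was lower in the ventral than in the dorsal SCN, and among 7 genes of the shell 2 rose, Prok2 and C1ql3. None of 16 SCN-enriched regulators passed, with Lhx1 (-0.66, adjusted p = 0.27) and Rorb (0.52, adjusted p = 0.339) as the members of smallest p. In the ventral arrays fitted alone 1 of them passed, the synaptotagmin gene Syt10 (0.69, adjusted p = 0.0381).

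Feedback inhibitors of MAP kinase signalling were mostly positive, at 13 of 15 genes with a list median of 0.32, and 2 rose. Dusp4, a phosphatase of nuclear MAP kinases, had 6.34, 6.42, 9.40 and 9.63 on light arrays, against 3.45, 3.68, 9.26 and 7.51 on sham arrays. The gap was wide in batch A and narrow in batch B, where sham array 3 nearly reached the light arrays. Dusp4 rose by 1.97 ± 0.382 (adjusted p = 0.0111, and up to 0.0695 with 1 array left out, passing in 4 of 8 fits). Spred2, which blocks Raf activation, rose by 1.09 (adjusted p = 0.0131, and up to 0.0712 with 1 array left out, passing in 4 of 8 fits). Its other probe sets past the filter gave 0.06 to 0.81. Members that did not pass included Spry4 (0.84, adjusted p = 0.397) and Dusp1 (0.66, adjusted p = 0.667). Spry4 passed without dorsal light array 4 (adjusted p = 0.0248), and the phosphatase gene Dusp7 passed as lower (-0.85, adjusted p = 0.0426), which makes 3 risen and 1 fallen.

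No gene passed among receptors of the retinal input or among kinases and coactivators that act on CREB. The 15 tested receptors, for glutamate, PACAP and other signals to the SCN, had a list median of -0.27, and 2 of them were positive. The AMPA receptor subunit Gria4 (-0.48, adjusted p = 0.528) and the NMDA receptor subunit Grin2b (-0.52, adjusted p = 0.659) had the smallest p. The 23 kinases and coactivators that act on CREB had a list median of -0.09. Among 18 Ras and Rap regulators 1 fell, Rasgrp1, and 0 rose. Rasgrp1, a Ras activator driven by calcium and diacylglycerol, had 7.82, 7.19, 9.59 and 9.68 on light arrays, against 8.39, 8.52, 10.55 and 10.42 on sham arrays. Light array 2 was the lowest, and no light array reached a sham array of its batch. Rasgrp1 fell 1.87-fold (-0.90 ± 0.158, adjusted p = 0.00424). The Ras-like GTPase gene Rem2 passed as higher without dorsal light array 4 (0.79, adjusted p = 0.0146).

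Genes of cytokine signalling through gp130 and STAT factors included 2 risen of 19, and 15 of the 19 were positive. Socs3, the feedback suppressor that STAT3 induces, had 5.14, 6.63, 8.34 and 7.61 on light arrays, against 3.12, 3.25, 4.57 and 4.86 on sham arrays. Sham arrays of batch A were below the filter level, and the groups were wide apart in both batches. Socs3 had a difference of 2.98 ± 0.517 (adjusted p = 0.00386), and a second probe set gave 2.45. Osmr, the oncostatin M receptor, averaged 2.90 on sham arrays of batch A and 3.96 on those of batch B, with a difference of 1.77 (adjusted p = 0.00888, and up to 0.0542 with 1 array left out, passing in 6 of 8 fits). Members that did not pass included Socs2 (0.65, adjusted p = 0.214), the cytokine gene Lif (0.53, adjusted p = 0.3) and Stat3 (0.65, adjusted p = 0.349), and Stat3 passed without dorsal light array 4 (adjusted p = 0.0269).

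Il1rap, Tnfrsf1a, Fas and Nlrc5 are named after their values were seen. Il1rap, the accessory chain of the interleukin-1 receptor, rose by 1.09 (adjusted p = 0.0147, and up to 0.0695 with 1 array left out, passing in 5 of 8 fits). Its other probe sets past the filter gave 0.05 and 0.82 at mean levels of 4.91 and 5.39, against 7.42 for the probe set used. The TNF receptor gene Tnfrsf1a rose by 0.74 (adjusted p = 0.021, and up to 0.124 with 1 array left out, passing in 3 of 8 fits). The death receptor gene Fas rose by 0.74 (adjusted p = 0.0419, and up to 0.229 with 1 array left out, passing in 1 of 8 fits). Nlrc5, a regulator of MHC class I genes, also rose and passed in all 8 fits (1.43, adjusted p = 0.00376).

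Stress genes rose singly within their lists. Hspa1b, an inducible Hsp70 chaperone, had 7.53, 6.57, 9.91 and 9.47 on light arrays, against 5.80, 4.17, 6.68 and 7.83 on sham arrays. Sham arrays differed among themselves by over 1 log2 unit within each batch, and each light array still lay above them. Hspa1b rose 4.76-fold (2.25 ± 0.378, adjusted p = 0.00326). It has a near-identical copy, Hspa1a, which was not tested, and the probe set may read both. Among 21 cytosolic heat shock chaperones Hspa1b was the only gene that passed, and among 21 genes of the endoplasmic reticulum none passed. Ddit4l, an inhibitor of mTOR signalling, was the only gene of 16 in the glucocorticoid and metal response list that passed. It had 4.87, 6.58, 9.31 and 8.93 on light arrays, against 3.79, 3.74, 6.15 and 6.28 on sham arrays, and rose by 2.43 ± 0.374 (adjusted p = 0.00133). Without dorsal light array 4 the metallothionein gene Mt2 of the same list also passed (0.79, adjusted p = 0.027). Srxn1, sulfiredoxin, which restores oxidised peroxiredoxins, rose by 1.86 (adjusted p = 0.0376, and up to 0.19 with 1 array left out, passing in 1 of 8 fits).

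After Nptx1 and Tinf2, the genes of smallest p were Emd, St8sia6 and Trmt61b. Emd encodes emerin of the inner nuclear membrane, and had 8.41, 8.60, 11.15 and 10.98 on light arrays, against 6.60, 6.89, 10.001 and 9.80 on sham arrays. The arrays of a group lay close together within each batch, and Emd rose 2.75-fold (1.46 ± 0.148, adjusted p = 7.97e-06). St8sia6, a sialyltransferase, had 6.47, 6.90, 8.53 and 8.63 on light arrays, against 4.96, 5.21, 7.20 and 7.15 on sham arrays. It rose 2.84-fold (1.51 ± 0.163, adjusted p = 1.84e-05), with no overlap. Trmt61b, a methyltransferase of mitochondrial tRNA, had 8.10, 8.42, 10.82 and 10.56 on light arrays, against 6.89, 6.58, 8.93 and 9.22 on sham arrays. Light arrays were above sham arrays in each batch, and it rose 2.97-fold (1.57 ± 0.174, adjusted p = 2.25e-05).

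Med14, a subunit of the Mediator complex that links activators to RNA polymerase II, had 7.43, 7.34, 9.33 and 9.65 on light arrays, against 5.71, 6.23, 7.13 and 8.09 on sham arrays. Sham arrays 2 and 4 were the nearest to the light arrays of their batches. Med14 rose 3.14-fold (1.65 ± 0.241, adjusted p = 0.000775). Further risen genes that passed in all 8 fits are named after their values were seen. They include Wwtr1, the Hippo pathway coactivator TAZ (1.18, adjusted p = 0.000567), Cdk11b, a kinase of transcription and splicing (1.36, adjusted p = 0.000775), and Eprs, a tRNA synthetase (1.26, adjusted p = 0.00153). Creb3l1, a membrane-bound relative of CREB, was among the largest increases (1.60, adjusted p = 0.00326).

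The next risen genes were grouped after their values were seen. Tpm4, a tropomyosin of actin filaments, had 8.28, 7.98, 9.32 and 9.57 on light arrays, against 6.48, 6.15, 7.88 and 7.82 on sham arrays. The light arrays lay well above the sham arrays of their batch, and Tpm4 rose 3.26-fold (1.71 ± 0.251, adjusted p = 0.000775). Ezr, ezrin, which ties actin to the membrane, had 3.71, 4.78, 8.46 and 8.30 on light arrays, against 2.95, 3.21, 6.72 and 6.40 on sham arrays. Batch A lay around or below the filter level, batch B well above it, and the difference was 1.50 ± 0.224 (adjusted p = 0.000919). Pdlim4, an actin-associated adaptor, rose 4.28-fold (2.10, adjusted p = 0.0024). Gjb2, the gap junction protein connexin 26, rose 3.39-fold (1.76, adjusted p = 0.00238). Ehd3, an endosomal recycling protein, rose 2.65-fold (1.41, adjusted p = 5.96e-05). Sema3e, a secreted guidance cue, rose by 2.20 (adjusted p = 0.0111, and up to 0.0695 with 1 array left out, passing in 5 of 8 fits).

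Most of the risen genes described next were named after their values were seen. Dio2, which makes active thyroid hormone in glia, had 5.08, 5.19, 7.39 and 7.90 on light arrays, against 4.56, 4.46, 5.31 and 6.14 on sham arrays. The sham arrays were lower in both batches, with a difference of 1.27 (adjusted p = 0.0155, and up to 0.0927 with 1 array left out, passing in 5 of 8 fits). Slc5a3 and Slc2a13, both importers of myo-inositol, rose by 0.96 and 0.87, with adjusted p of 0.00331 and 0.0238. The adjusted p of Slc2a13 was up to 0.153 with 1 array left out, passing in 3 of 8 fits. Ppp1r3c, which brings a phosphatase to glycogen, rose by 1.09 (adjusted p = 0.00386), and Hpgd, which breaks down prostaglandins, rose by 0.95 (adjusted p = 0.00424). Pde4d, which breaks down cAMP, rose by 0.70 (adjusted p = 0.00515).

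Some genes known from glia rose while the lists of glial markers did not move together. Gfap, an intermediate filament of astrocytes, had 9.25, 9.33, 9.91 and 10.06 on light arrays, against 8.23, 7.56, 8.65 and 9.01 on sham arrays. Light arrays were higher in both batches, and Gfap rose 2.42-fold (1.28 ± 0.263, adjusted p = 0.018, and up to 0.0907 with 1 array left out, passing in 3 of 8 fits). Vim, another intermediate filament, of tanycytes and reactive astrocytes, had 8.75, 8.99, 9.998 and 9.57 on light arrays, against 7.52, 6.85, 8.38 and 8.15 on sham arrays. It rose 3.04-fold (1.60 ± 0.301, adjusted p = 0.00849), and its other probe sets gave 1.60 and 1.44. Megf10, an engulfment receptor of astrocytes named after its values were seen, rose by 1.29 (adjusted p = 0.000373).

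The astrocyte list had 1 risen gene of 16, Gfap, with a median of -0.10 and 3 positive genes. Its mean log2 level was 8.57 to 8.62 on light and 8.68 to 8.76 on sham arrays of batch A, and 10.33 to 10.42 on light and 10.30 to 10.41 on sham arrays of batch B. The water channel gene Aqp4 had -0.03 and the glutamate transporter gene Slc1a3 had -0.02, and the lowest difference of the list was -0.52. Gjb6 (adjusted p = 0.635) and Fgfr3 (adjusted p = 0.793) had the smallest p of members that did not pass. With 1 array left out, Gjb6 lay between -0.53 and -0.34 and Fgfr3 between -0.56 and -0.31. The ependymal and tanycyte list had 1 risen gene of 7, Vim, and its defining markers Rax and Foxj1 did not reach the filter. Its mean level was 5.15 to 5.26 on light and 4.59 to 4.74 on sham arrays of batch A, and 5.91 to 6.09 on light and 5.59 to 6.19 on sham arrays of batch B. For 13 microglial genes, 0 passed (1, Cd68, in the ventral arrays fitted alone, adjusted p = 0.0164) and the median was 0.25, with mean levels of 5.17 to 5.33 on light and 4.87 to 5.24 on sham arrays of batch A, and 6.31 to 6.50 on light and 6.17 to 6.29 on sham arrays of batch B. The part of these cells in the results was not tested. No gene passed among 13 oligodendrocyte, 14 endothelial and mural, 9 neighbouring hypothalamic neuron, 2 blood and 15 pan-neuronal markers.

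Among the 18 fallen genes, Pitpnc1 had the smallest p. Pitpnc1, a phosphatidylinositol transfer protein, had 6.19, 6.06, 8.80 and 9.13 on light arrays, against 7.45, 7.37, 10.42 and 10.02 on sham arrays. Every light array was lower than the sham arrays of its batch, and Pitpnc1 fell 2.41-fold (-1.27 ± 0.204, adjusted p = 0.00217). Plch1, a phospholipase C, had 3.84, 3.75, 6.71 and 6.62 on light arrays, against 4.40, 4.81, 7.43 and 7.36 on sham arrays. Light values of batch A were just below the filter level, and the difference was -0.77 ± 0.16 (adjusted p = 0.018, and up to 0.0914 with 1 array left out, passing in 3 of 8 fits).

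Pdgfc, a platelet-derived growth factor, had 4.90, 4.28, 7.42 and 7.81 on light arrays, against 5.94, 5.87, 8.44 and 8.41 on sham arrays. The sham arrays lay close together, the light arrays lower and wider apart, and Pdgfc fell 2.09-fold (-1.06 ± 0.181, adjusted p = 0.00344). Pdgfa, of the same family, fell by 0.66 (adjusted p = 0.0256, and up to 0.127 with 1 array left out, passing in 1 of 8 fits). Among 27 growth factor and receptor tyrosine kinase genes these 2 fell and 1 rose, Egfr (0.97, adjusted p = 0.0385, and up to 0.197 with 1 array left out, passing in 1 of 8 fits). Its other probe set of similar level gave 1.09, and the 3 dimmer ones past the filter gave -0.02, -0.01 and 0.16. Members that did not pass included the FGF receptor Fgfr1 (0.73, adjusted p = 0.0914). Without dorsal light array 4, Fgfr1 (adjusted p = 0.00737) and Fgfr2 (0.83, adjusted p = 0.00692) passed, which makes 3 risen. Among 7 chemokine and receptor genes 1 fell and 0 rose. The chemokine gene Cxcl12 had 6.64, 5.30, 8.47 and 8.37 on light arrays, against 7.40, 7.29, 9.79 and 10.03 on sham arrays, with light array 2 the lowest. It fell by 1.43 (adjusted p = 0.0351, and up to 0.21 with 1 array left out, passing in 1 of 8 fits). Its other probe set past the filter gave -0.03 at a mean level of 4.42, against 7.91 for the probe set used.

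Sertm1, a small membrane protein gene, had 6.12, 5.55, 6.93 and 6.78 on light arrays, against 6.85, 6.95, 8.65 and 8.15 on sham arrays. No arrays overlapped within a batch, and Sertm1 fell 2.47-fold (-1.30 ± 0.238, adjusted p = 0.00668). St8sia1, the synthase of ganglioside GD3, had 5.37, 5.01, 7.75 and 7.94 on light arrays, against 6.51, 6.21, 8.48 and 8.75 on sham arrays. Light arrays were lower in each batch, with a difference of -0.97 ± 0.199 (adjusted p = 0.0173, and up to 0.101 with 1 array left out, passing in 3 of 8 fits), and another probe set at a mean level of 4.23 gave 0.08. Ankrd63 had 2.87, 3.08, 5.85 and 4.38 on light arrays, against 3.80, 4.18, 7.43 and 7.43 on sham arrays. Light array 4 was far below light array 3, and the difference was -1.66 ± 0.341 (adjusted p = 0.0173, and up to 0.0858 with 1 array left out, passing in 4 of 8 fits).

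Genes of synapses and membrane excitability fell singly. Cbln2, a cerebellin that organizes synapses, had 9.99, 9.43, 10.58 and 10.73 on light arrays, against 10.75, 10.65, 11.34 and 11.37 on sham arrays. The separation was narrow but complete within each batch, and the difference was -0.84 ± 0.182 (adjusted p = 0.0256, and up to 0.163 with 1 array left out, passing in 2 of 8 fits). The GABA receptor subunit gene Gabrb2 fell by 0.73 (adjusted p = 0.0262) and Abcc8, the sulfonylurea-binding part of KATP channels, fell by 1.14 (adjusted p = 0.0279). The acid-sensing channel gene Asic1 fell by 0.75 (adjusted p = 0.0345). With 1 array left out the adjusted p was up to 0.169 for Gabrb2 (passing in 2 of 8 fits), 0.142 for Abcc8 (2 of 8) and 0.207 for Asic1 (1 of 8), each without light array 2. In the ventral arrays fitted alone Gabrb2 did not pass (adjusted p = 0.0507).

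The lists around these genes held few calls. Among 16 GABA genes and 27 potassium channel genes 1 fell in each and 0 rose, with list medians of -0.16 and -0.19. Of 21 sodium, calcium and HCN channel genes none passed, 3 were positive, and the list median was -0.21. The calcium channel gene Cacna1c (-0.78, adjusted p = 0.197) and the sodium channel gene Scn1a (-0.50, adjusted p = 0.577) are examples, and Cacna1c passed in the ventral arrays fitted alone (adjusted p = 0.0388). Among 27 synapse organizers and vesicle proteins 2 rose, Nptx1 and C1ql3, and 1 fell, Cbln2. With the replicate block the synaptotagmin genes Syt4 (0.997, adjusted p = 0.0432) and Syt17 (-1.41, adjusted p = 0.0374) also passed, and Syt4 passed without dorsal light array 4 (adjusted p = 0.00176). No gene passed among 22 TGF-beta, 20 Wnt, 15 cholesterol, 19 glycolysis and 9 temperature-responsive RNA-binding genes (in the ventral arrays fitted alone 1 passed, Id3 of the TGF-beta list, adjusted p = 0.0405), with list medians of 0.06, 0.00, -0.19, -0.15 and -0.03.

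**Figure D3:**
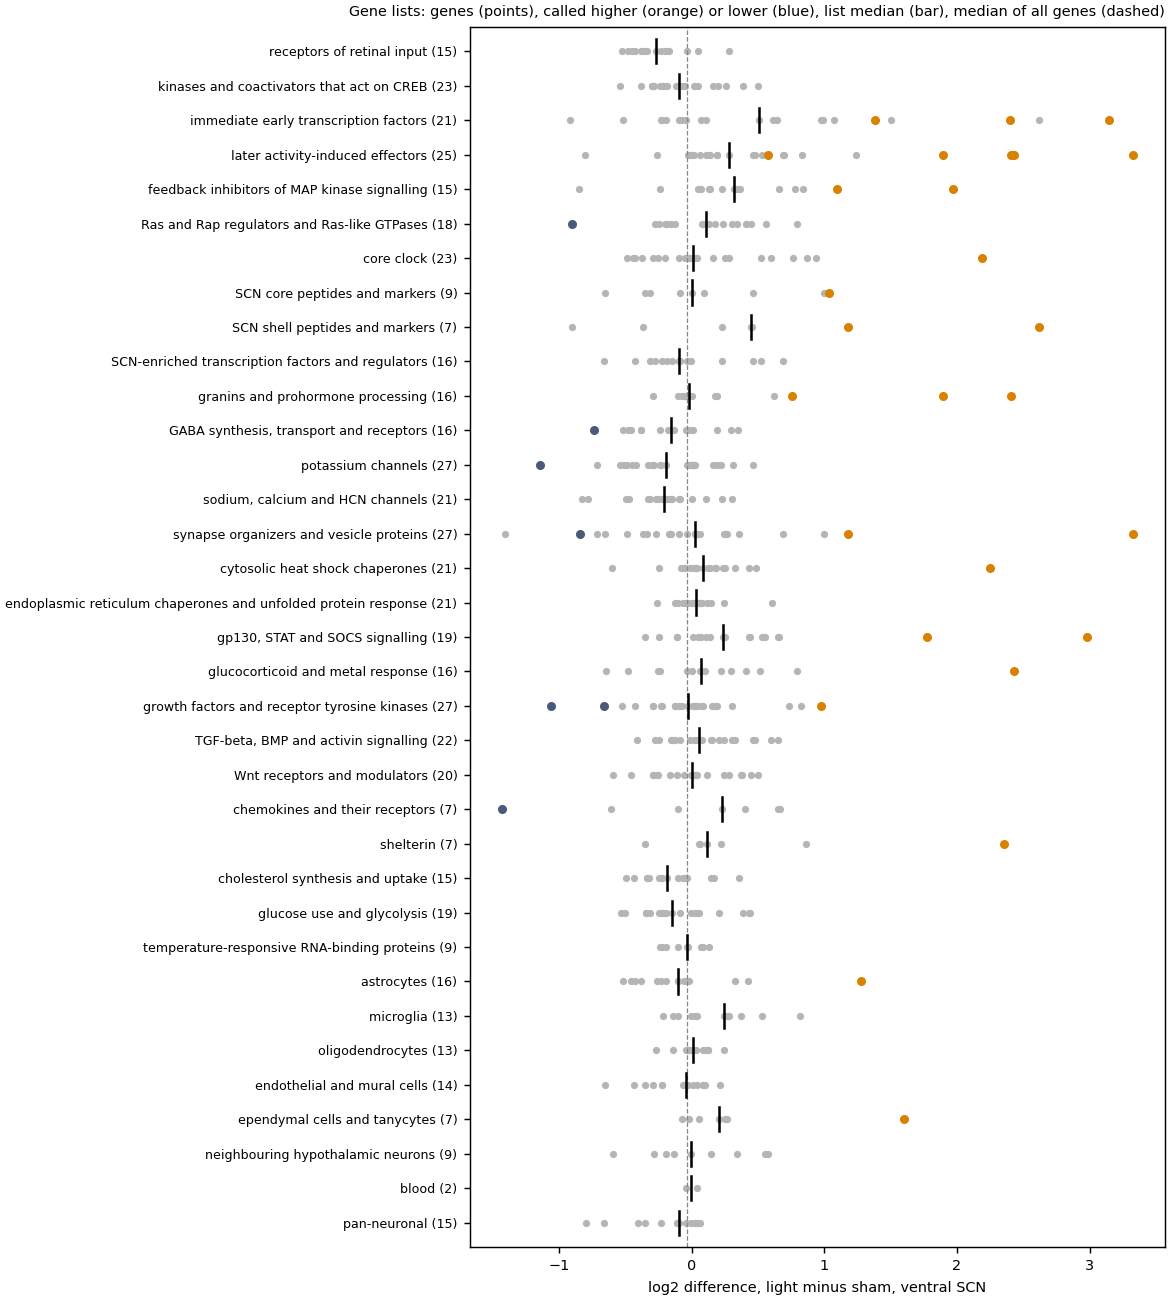
Log2 difference, light minus sham, in the ventral SCN (horizontal axis) for the tested genes of 35 lists (number tested in parentheses), with genes that passed in orange (risen) or blue (fallen). Black bars are list medians and the dashed line is the median of all genes at -0.03; the medians of immediate early (0.51) and feedback inhibitor genes (0.32) lie to its right and that of retinal input receptors (-0.27) to its left.

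Each batch was also read on its own, since the batches are separate sets of 2 light and 2 sham ventral arrays. With the central and dorsal arrays of the batch in the fit of the spread, 10 genes passed in batch A (0.0741% of those tested) and 7 in batch B (0.0519%). With the 4 ventral arrays of a batch alone, 10 passed in batch A (0.0741%) and 3 in batch B (0.0222%), Egr3, Fosb and Ddit4l. The values that follow are of the 10 and the 7 from the fits with all regions. All 10 had the same direction in batch B and all 7 in batch A, while 62.9% of all genes had the same direction in both. The median difference of the 10 was 2.60 in batch A, where they were chosen, and 1.24 in batch B. The median difference of the 7 was 2.49 in batch B, where they were chosen, and 1.88 in batch A. Of the 100 genes of smallest p in 1 batch, 97 of those from batch A and 96 of those from batch B had the same direction in the other. Nptx1 and Tinf2 passed in both batches with the other regions in the fit, and no gene passed in both with the ventral arrays alone.

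Some sizes differed between batches. Egr3 had 4.38 in batch B and 1.91 in batch A, and Fosb had 3.76 in batch B and 1.03 in batch A. Dusp4 had 2.82 in batch A and 1.13 in batch B, and Prok2 had 3.24 in batch A and 1.99 in batch B. These batch differences were not tested. Nptx1, with 3.40 in batch A and 3.25 in batch B, and Per2, with 1.88 and 2.49, lay nearer to equal.

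**Figure D4:**
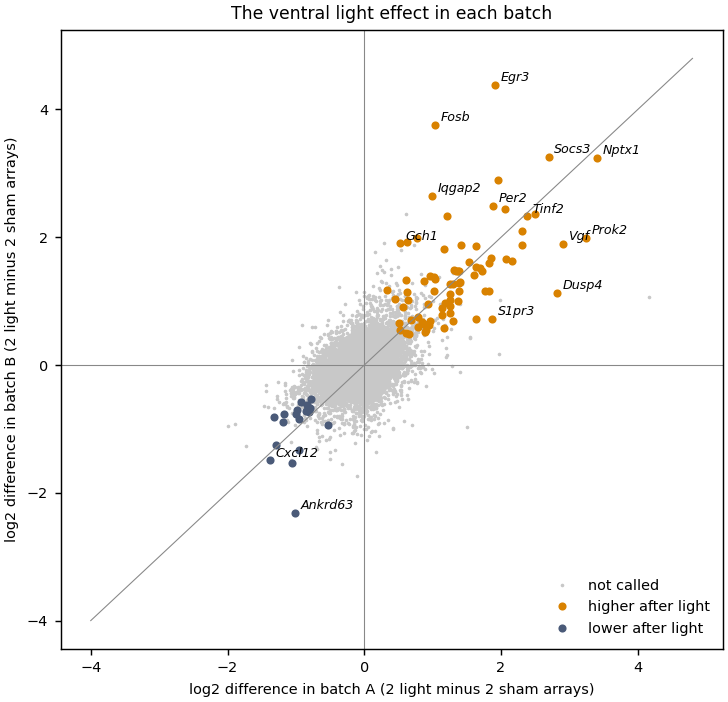
Log2 difference, light minus sham, from the 2 light and 2 sham ventral arrays of batch A (horizontal axis) and of batch B (vertical axis) for each gene; the diagonal marks equal differences. The 97 genes that passed lie at the lower left and upper right of the origin, with Egr3 (4.38 in B) and Fosb far above the diagonal and Dusp4 and S1pr3 below it.

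Light responses of the ventral SCN were set against those of the central and dorsal SCN of light and sham mice. Of the 97 genes, 38 also passed in the central and 14 in the dorsal SCN, where 0.385% and 0.178% of all genes passed. The 9 genes that passed in all 3 regions were Creb3l1, Egr3, Emd, Il1rap, Megf10, Nptx1, Pdlim4, S100a10 and St8sia6. All 79 risen genes were positive in the central and 76 in the dorsal SCN, and all 18 fallen genes were negative in the central and 16 in the dorsal SCN. The share of all genes in each direction was not counted there. Median differences in the central SCN were 0.97 for risen, -0.69 for fallen and -0.08 for all genes. In the dorsal SCN they were 0.74, -0.49 and -0.03. Regions of 1 mouse may lie on different arrays, so these counts are a description. The dorsal light group includes dorsal light array 4, which stood apart in quality (median correlation 0.872). Without that array the ventral count was 207 in place of 97. The central and dorsal counts, the 9 shared genes and the dorsal medians are given only with that array included. A weaker response of the dorsal SCN therefore cannot be read from them.

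The difference of the light effect itself, ventral minus the mean of central and dorsal, passed for 1 gene of 13494 (0.00741%), Tinf2 (1.48 ± 0.223, adjusted p = 0.0176). At an unadjusted p under 0.05 there were 223 such genes. In the central SCN, Tinf2 had 5.34, 5.36, 7.40 and 7.50 on light arrays, against 4.51, 4.30, 5.86 and 6.22 on sham arrays. In the dorsal SCN it had 5.90, 5.55, 7.20 and 6.85 on light arrays, against 4.68, 4.95, 6.63 and 6.94 on sham arrays. Light and sham arrays were apart in the central SCN, with a difference of 1.18 (adjusted p = 0.00236), and overlapped in batch B of the dorsal SCN, with a difference of 0.58 (adjusted p = 0.328). The overlap came from dorsal light array 4 alone (6.85), the array that stood apart in quality. Dorsal light array 3 (7.20) lay above both sham arrays of batch B. The ventral minus dorsal difference of Tinf2 passed (1.78, adjusted p = 0.00935), and ventral minus central passed for 0 genes, with Tinf2 at 1.17. Without dorsal light array 4 its adjusted p for the difference from both regions was 0.0121. The call of Tinf2 was lost without light ventral array 2 (adjusted p = 0.0976), light array 4 (0.0713), sham array 2 (0.0729) or sham array 3 (0.106), and under median centring (0.0542).

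Per2 showed no such difference past the threshold. In the central SCN it had 6.19, 5.26, 9.56 and 9.58 on light arrays, against 4.89, 4.30, 7.35 and 8.13 on sham arrays. In the dorsal SCN it had 6.63, 6.30, 9.68 and 9.10 on light arrays, against 4.55, 4.73, 8.82 and 8.52 on sham arrays. Light arrays were above sham arrays within each batch in both regions. The ventral effect of Per2 exceeded the mean of the others by 0.81 ± 0.329, with an adjusted p of 1.00. Ehd3 had the next smallest p after Tinf2, at 0.89 ± 0.206 (adjusted p = 1.00). The data do not show that the regions respond alike, only that 1 gene passed the test of a difference.

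**Figure D5:**
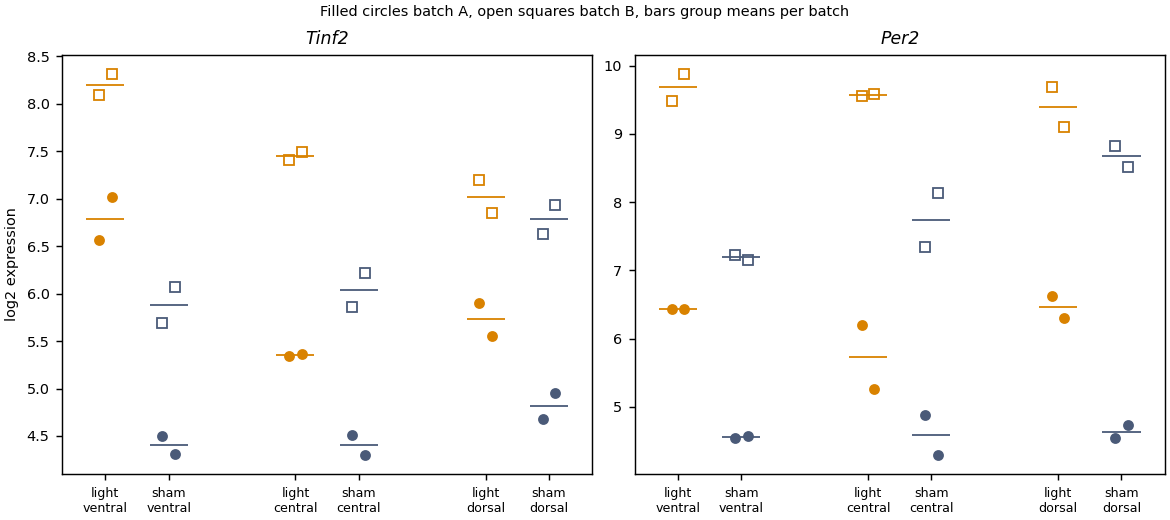
Log2 expression of Tinf2 (left) and Per2 (right) on all 24 arrays (vertical axis), with light left of sham in ventral, central and dorsal SCN; filled circles are batch A, open squares batch B and bars means of 2 arrays. Tinf2 reaches 8.31 on ventral light arrays and 7.20 on dorsal light arrays, where dorsal sham arrays of batch B reach 6.94.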

How the data were processed

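The deposited table holds the authors' log2 expression values of 45101 Affymetrix probe sets on 24 arrays. MAS5, R 3.0.2 and GCRMA 2.32.0 are listed in the submitters' processing notes, with no role given. Array medians were 3.52 to 3.62 in batch A and 4.81 to 5.07 in batch B.

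Probe sets with exactly 1 gene symbol (34945) were kept, those with several (932) or none (9160) and 64 controls were not, and the probe set of highest mean stood for its gene (18193 genes). Entrez identifiers of 34741 matched the RefSeq table of GRCm38.p6, which changed 0 symbols. Tests used limma 3.58.1 in R 4.3.3 (lmFit, eBayes, two-sided) with 6 group means and batch on all 24 arrays (17 residual and 4.7 prior degrees of freedom), and were tested on simulated data. No label says which arrays share an animal, so p-values measure only the spread between these samples, and their number limits the precision. Per replicate number, deviations of light and sham ventral arrays correlated at 0.262 in batch A and 0.221 in batch B (values mirror each other within a batch), so the numbers were also fitted as a block; light and sham mice differ, and the labels do not say what a number marks.

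Named genes were the 30 largest increases and all 18 decreases that passed, the 10 genes of smallest p for the difference between regions, a panel of clock and SCN genes, list members that passed, and 2 more per list by smallest p. Of these, the 12 risen and 8 fallen genes of smallest p have per-array values. Other genes, list members that passed only in an alternative, and other per-array values, were picked after their values were seen. The comparison, lists and panel were chosen with earlier results of these data known. Alternatives covered the batch term, filters, scaling, probe set choice, array weights, an intensity trend and left-out arrays. Of the 97 genes, 51 had 93 other probe sets past the filter, of which 82 went the same way and 11, of 9 genes, the other way.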

Additional observations from a re-analysis of the deposited data

Results flagged for a closer look

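Of 366 groups of 4 ventral arrays (183 named genes, light and sham, values adjusted for batch), 21 held an array whose gap to the nearest other array took up more of the group's range than Dixon's 95% critical value for 4 samples allows. Chance gives about 1 in 20. Among the light groups this share of the range was 0.838 for Abcb1a, 0.871 for Ankrd63, 0.851 for Avp, 0.914 for Cd68, 0.863 for Ezr, 0.830 for Fndc9, 0.832 for Gabrb1, 0.864 for Pcsk1n, 0.843 for Pdk1, 0.891 for S100a9, 0.879 for Slc2a13, 0.912 for Slc4a1 and 0.910 for Syt4. Among the sham groups it was 0.862 for C5ar1, 0.835 for Cacna1c, 0.842 for Chga, 0.976 for Dock10, 0.840 for Dusp4, 0.944 for Egr2, 0.897 for Nav2 and 0.874 for Pmch. Of these genes, 8 passed: the array apart was a sham array for Chga, Dusp4, Egr2 and Nav2, and a light array for Ankrd63, Ezr, Fndc9 and Slc2a13.

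Tinf2 differed in its light effect between regions, with ventral minus the mean of central and dorsal at 1.48 (adjusted p = 0.0176). Its ventral light arrays were the highest of all regions in each batch.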

How the results depend on the processing

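All 97 genes kept their direction under every alternative, and the replicate block, with 124 genes, kept all 97. In several alternatives the balanced design leaves the ventral difference unchanged, so the direction could not change there. These are the ventral arrays alone, no batch term, the block, the intensity trend and arrays of other regions left out. Of the genes in the text that did not pass, Cry1, Arntl, Gpr3, Syt4 and Syt17 passed with the block. It changed the call of no other gene in the text, and its further added genes are not named here. The count of 97 became 196 in the ventral arrays alone, 207 without dorsal light array 4, 576 with array weights, 0 without the batch term (28 at an unadjusted p under 0.05), 10 in batch A alone and 7 in batch B alone. It was 83 under median centring, 122 under quantile normalization within batch, 87 with the mean of a gene's probe sets, 95 with an intensity trend and 97 with no filter or a filter at the array median. Leaving out 1 ventral array gave 47 to 81, and 1 array of the other regions, chosen after seeing the data, gave 81 to 110 besides dorsal light array 4. The region difference passed for 1 gene, but for 0 without the batch term, in batch A alone, in batch B alone and under median centring, and for 2, Tinf2 and Ehd3, under quantile normalization. With 1 ventral array left out it passed for 0 to 1 genes, and for 1 with each array of another region left out. Medians near 0 of the core clock, SCN core, oligodendrocyte and neighbouring neuron lists changed sign between scalings; median centring shifted all genes alike. With fewer arrays the fits have fewer degrees of freedom, and for the other shifts the cause was not tested. Low signal limits batch A, where 24 risen genes had sham means and 4 fallen genes light means under 4.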

Other observations

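Among the 97 genes were 2 pairs that are next to each other in the order of tested genes in the RefSeq table of GRCm38.p6. Rln1 and Insl6, both of the relaxin family of peptide hormones, had differences of 1.20 and 0.83 (adjusted p = 0.0173 and 0.04998). Vim and St8sia6 had 1.60 and 1.51. Rln1 had 6.04, 5.21, 7.69 and 7.99 on light arrays, against 4.72, 4.50, 6.35 and 6.58 on sham arrays, with a gap in each batch, and its adjusted p was up to 0.091 with 1 array left out, passing in 2 of 8 fits. Insl6 had 4.13, 3.85, 5.11 and 5.06 on light arrays, against 3.45, 3.25, 4.38 and 3.74 on sham arrays, close to the filter level, and its adjusted p was up to 0.251 with 1 array left out, passing in 0 of 8 fits. These genes were picked after their values were seen.

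S1pr3, Gch1 and Slc7a5 were also picked after their values were seen. S1pr3, a receptor of sphingosine 1-phosphate, had 6.38, 6.31, 7.56 and 7.44 on light arrays, against 4.59, 4.35, 6.99 and 6.58 on sham arrays, and rose by 1.30 (adjusted p = 0.0154, and up to 0.0888 with 1 array left out, passing in 4 of 8 fits). Gch1, which makes the cofactor of nitric oxide synthase and tyrosine hydroxylase, had 3.44, 4.16, 5.94 and 5.70 on light arrays, against 3.20, 3.36, 3.99 and 3.83 on sham arrays. Its sham values lay below 4, and the difference was 1.22 (adjusted p = 0.0363, and up to 0.185 with 1 array left out, passing in 2 of 8 fits). Slc7a5, a transporter of large neutral amino acids, rose by 0.82 (adjusted p = 0.0279, and up to 0.138 with 1 array left out, passing in 0 of 8 fits).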
